A study of Mus musculus with 17 samples.

Results

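The genes described are the main lysosomal proteases of mouse macrophages and their inhibitors: the aspartic protease cathepsin D (Ctsd), the cysteine cathepsins Ctsb, Ctsc, Ctsh, Ctsl, Ctss and Ctsz, the asparaginyl endopeptidase legumain (Lgmn), and the cystatins Cst3 and Cstb. They form a list of names, drawn up with earlier results of these data known, and are 10 of the 37620 gene rows of the expression table. Expression was measured by SMART-seq2 RNA sequencing, which copies and amplifies full-length transcripts, in 17 libraries of bone marrow-derived macrophages from C57BL/6J mice. Bone marrow cells had first been grown for 7 days with 50 ng/ml of M-CSF, the growth factor that turns them into macrophages. The labels name 5 Smad3-WT control libraries, 4 Smad3-WT libraries with transforming growth factor beta 1 (TGF-β1), 5 Smad3-KO control libraries and 3 Smad3-KO libraries with TGF-β1, given at 5 ng/ml for 5 days to drive the macrophage-myofibroblast transition. No label gives the kind of Smad3 allele, the animals' age, or an animal or culture behind a library, so a p-value here speaks of library-to-library spread, which may be technical. The treatment text stands on control libraries too, so the length of their culture remains unstated. Cells sorted by F4/80 and smooth muscle actin are mentioned in the design, without a label tying a library to a sorted fraction. Title and protocols disagree on whether 1 cell or many went into each library.

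Lysosomal proteases are made as inactive precursors, carried to the acidic endosome and lysosome, and cut to their active form there. In macrophages they break down engulfed proteins, trim antigens and the invariant chain for MHC class II, and, once released, cut extracellular matrix. Cystatins bind the active site of papain-type cysteine cathepsins: cystatin C (Cst3) is secreted, while cystatin B (Cstb, also called stefin B) stays in the cytosol and nucleus. Neither inhibits the aspartic protease Ctsd. TGF-β1 signals through Smad3, a transcription factor that moves to the nucleus when the receptor is active, and the study compares cells with and without it.

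Values are in TPM, a unit of transcript abundance. They are corrected for gene length and sum to the same total in every library, so levels can be compared between genes but read depth is unknown. Between 7269 and 10307 genes reached a TPM of 1 in a library. Of genes at a moderate level in the rest of a group, each library listed 4.08% to 14.8% at 0 (median 8.78%), and 6 libraries listed over 10%. Smad3 itself did not follow the labels under TGF-β1, and followed them only in part in control. It was listed at 0, 0.01, 0, 15.4 and 11.5 TPM in wild-type control and at 0 in each of the 4 with TGF-β1. Under the knockout label it was at 0, 0.27, 1.93, 0 and 0 in control and at 6.18, 0.01 and 22.3 with TGF-β1. Genotypes are therefore given as labelled throughout, and each comparison with the knockout label was also fitted without the 3 libraries labelled knockout that held Smad3 at a TPM of 1 or more, an alternative chosen after seeing the data. It leaves 1 labelled-knockout TGF-β1 library, assumed to vary like the other groups, and keeps the wild-type libraries with Smad3 at or near 0. Macrophage markers were present in every group, with the 10 markers summing to 11702 to 46098 TPM. Lyz2, Cd68, Tyrobp and Fcer1g were at 1129 TPM or more in every library, and Lyz2 alone was at 4975 to 39900 TPM. Adgre1, Csf1r and Cd14 were at 25.4 TPM or more in every library. The rest were weaker: Itgam fell to 3.28 TPM and Fcgr1 to 0.04 TPM, and Mertk reached a TPM of 1 in only 6 of 17 libraries. Fibroblast markers (Col1a1, Col1a2, Col3a1, Pdgfra, Dcn, Lum) summed to at most 0.02 TPM, and 9 of 10 neutrophil markers, Ctsg among them, were listed at 0 in every library. The remaining neutrophil marker, S100a8, was at a TPM of 1 or more in 3 libraries. It reached 132 TPM in wild-type control and 34.6 TPM in labelled-knockout control and was at 0 in both TGF-β1 groups. The sum of 7 osteoclast markers was highest in labelled-knockout TGF-β1, while the wild-type groups overlapped, as did the 2 control groups. It was 0.81 to 132 TPM in wild-type control and 0.22 to 45.3 in wild-type TGF-β1. Under the knockout label it was 86.3 to 230.3 TPM in control and 373 to 515 with TGF-β1. Nearly all of the last was Dcstamp, while Acp5, Calcr, Oscar and Mmp9 were listed at 0 there. The part of these markers in the results below was not tested.

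Promoter sequence from RefSeq (GRCm38.p6, not the build of the expression files) was at hand for 7 of the 10 genes, and 3 windows are shown because Ctsd and Cst3 were called after TGF-β1 in wild type and Ctsl had the largest difference downwards. Each holds the 250 bases before the RefSeq start, 5′ to 3′ on the gene's strand. Capitals mark CACGTG, the E-box, and its extension TCACGTGA, the core of the element bound by TFEB and its relatives in many lysosomal genes. Both motifs read the same on either strand, and every TCACGTGA holds a CACGTG. The windows lie at chr7:142387828-142388077 (minus strand) for Ctsd, chr13:64370521-64370770 (minus strand) for Ctsl and chr2:148875513-148875762 (minus strand) for Cst3.
Ctsd: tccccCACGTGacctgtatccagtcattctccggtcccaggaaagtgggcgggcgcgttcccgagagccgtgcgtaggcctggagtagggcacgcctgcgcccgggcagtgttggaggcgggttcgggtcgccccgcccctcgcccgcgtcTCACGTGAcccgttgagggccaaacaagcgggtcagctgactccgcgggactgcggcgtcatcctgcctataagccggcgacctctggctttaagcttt
Ctsl: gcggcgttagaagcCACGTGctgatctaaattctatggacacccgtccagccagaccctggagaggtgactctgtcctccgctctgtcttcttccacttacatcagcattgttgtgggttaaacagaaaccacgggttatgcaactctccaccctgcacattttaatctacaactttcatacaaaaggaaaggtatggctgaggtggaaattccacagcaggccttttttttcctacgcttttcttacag
Cst3: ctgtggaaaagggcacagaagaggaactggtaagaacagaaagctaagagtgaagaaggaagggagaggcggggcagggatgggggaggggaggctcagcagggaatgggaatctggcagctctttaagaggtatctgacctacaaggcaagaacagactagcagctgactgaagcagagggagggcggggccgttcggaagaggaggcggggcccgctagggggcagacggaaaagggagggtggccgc
The Ctsd window held CACGTG at -245 and -98 from the start, the second inside a TCACGTGA at -99. The Ctsl window held CACGTG at -236, and 1 of the 2 Lgmn windows held it at -49. No match was found in the windows of Cst3, Ctsz, Ctss and Ctsc. Among 32851 windows of the same length, 6.02% held CACGTG and 0.785% held TCACGTGA. Another motif, GAGGAAGT on either strand, a site type of the macrophage factor PU.1, was found in Ctsc at -151 only and in 2.44% of all windows. These matches describe letters, not binding.

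All 10 genes were measured in all 17 libraries, and all passed the filter of a TPM of 1 or more in at least 3 libraries that left 12158 genes for testing. Ctsd was the most abundant of them in 15 of the 17 libraries. In wild-type control the mean levels ran from Ctsd at 7218 ± 3391 TPM (SD, n = 5) through Ctsb at 4378 ± 736, Ctss at 4082 ± 2092, Ctsl at 2876 ± 1911, Cstb at 2699.9 ± 415, Ctsz at 1648 ± 710.3, Cst3 at 1386 ± 373, Lgmn at 677 ± 324 and Ctsh at 245 ± 58.3 down to Ctsc at 143 ± 91.8. The ranges of neighbours in that order overlapped except those of Lgmn and Ctsh. Within single libraries, Ctsd was above Ctsb, Cstb above Ctsz, Lgmn above Ctsh and Ctsh above Ctsc in 5 of 5. Ctss was above Ctsl and Cst3 above Lgmn in 4 of 5. Ctsb was above Ctss and Ctsz above Cst3 in 3 of 5, and Ctsl above Cstb in 2 of 5. In wild-type TGF-β1, Ctsd stood clear of the next gene, Ctss, in every library, and Cst3 had moved up to the fourth place, clear of Ctsz. In both labelled-knockout groups the ranges of every pair of neighbours overlapped. Ctsd was still above the next gene in 5 of 5 control libraries (Ctsb) and 3 of 3 TGF-β1 libraries (Ctss) of that label.

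The genes differed in how far replicate libraries spread. The SD of log2(TPM + 1) around the group means was 0.36 for both Ctsb and Cst3, 0.48 for Cstb, 0.53 for Ctsd, 0.52 for Ctss and 0.53 for Ctsz. It was 0.69 for Lgmn, 0.74 for Ctsh, 0.82 for Ctsc and 1.14 for Ctsl. The proteases at the highest levels were thus the steadier ones, with Ctsl the exception: it ranged from 341 to 6594 TPM over all libraries.

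**Figure D1:**
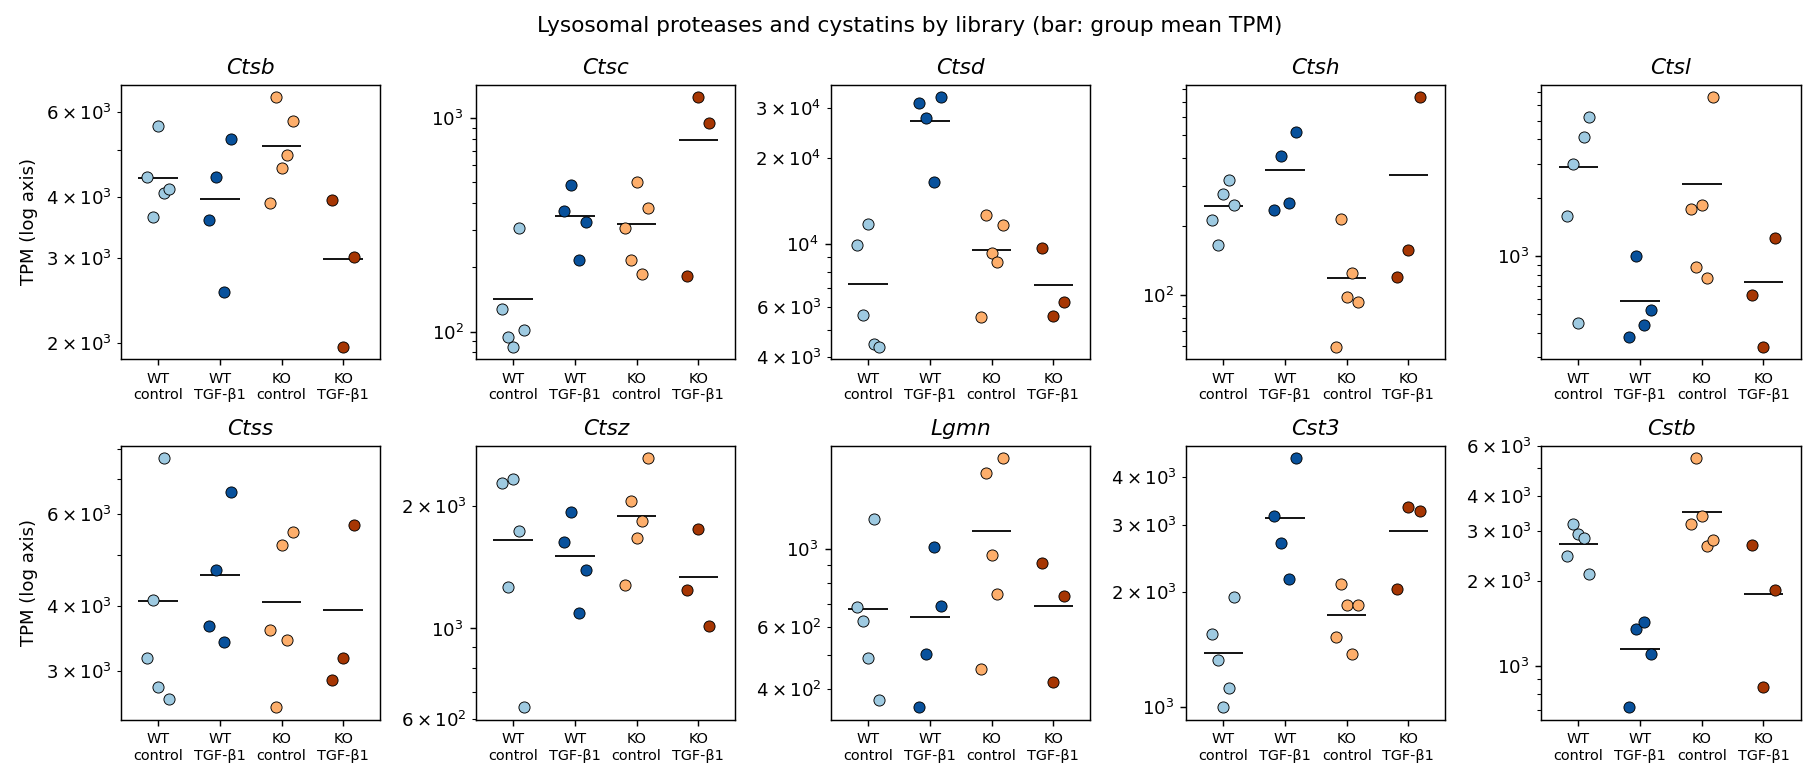
TPM of each gene (log axis, its own scale in each panel) in every library of the 4 groups, where WT is wild type and KO is labelled knockout, each point is 1 library and each bar is the group mean. Ctsd in wild-type TGF-β1 lies at 16485 to 32752 TPM, above all other libraries, and in wild type every TGF-β1 library lies above every control for Cst3 and below every control for Cstb.

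Ctsd, an aspartic endopeptidase that degrades proteins in the lysosome and activates other hydrolases, rose in wild-type macrophages with TGF-β1. It stood at 31342, 27631, 16485 and 32752 TPM in the 4 TGF-β1 libraries and at 9931, 5633, 11722, 4442 and 4365 TPM in the 5 controls. The lowest TGF-β1 library was above the highest control. The mean of 27053 ± 7369 TPM (SD, n = 4) against 7218 ± 3391 (n = 5) was a log2 difference of 1.98 ± 0.30 (SE, 95% interval 1.36 to 2.60), or 3.95-fold on the log2(TPM + 1) scale. In limma, this passed at an adjusted p of 0.00371 over all genes tested (a gene is called at an adjusted p under 0.05), and Ctsd ranked 5 of 12158 genes by p. It placed 1, 3, 4 and 1 among all genes of the TGF-β1 libraries, against places 6 to 22 in control libraries. If a library holds many cells, more cells with high Ctsd and more Ctsd RNA per cell cannot be told apart. The call held without any single library (adjusted p 0.00297 to 0.0233 over 9 fits) but not in a fit of these 2 groups alone (adjusted p = 0.0990) or without the 6 libraries that listed over 10% of moderate genes at 0 (log2 difference 2.03, adjusted p = 0.0591).

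With the knockout label, the difference of Ctsd with TGF-β1 pointed the other way and did not pass. Ctsd was at 9714, 5591 and 6261 TPM with TGF-β1 and at 5548, 12633, 9269.9, 8631 and 11663 TPM in control. The groups overlapped, with a log2 difference of -0.40 ± 0.32 (95% interval -1.07 to 0.28, adjusted p = 0.925), and it was -0.71 (adjusted p = 0.868) without the 3 libraries holding Smad3. Between genotypes under TGF-β1, Ctsd was lower in libraries labelled knockout, 7189 ± 2213 TPM (n = 3) against 27053 ± 7369 (n = 4), with no overlap, a log2 difference of -1.91 ± 0.34 and an adjusted p of 0.0152 in limma. This comparison shares the wild-type TGF-β1 libraries with the one above. It lost the call without wild-type TGF-β1 library 1, 2 or 4 or labelled-knockout TGF-β1 library 2 or 3 (adjusted p 0.0543 to 0.125), and the value was -2.23 with an adjusted p of 0.0771 without the 3 libraries holding Smad3. In control cells Ctsd was at 9549 ± 2779.6 TPM in libraries labelled knockout against 7218 ± 3391, a log2 difference of 0.47 ± 0.28 that did not pass (adjusted p = 0.907).

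The test of the difference itself, the TGF-β1 effect in labelled knockout minus that in wild type, gave -2.38 ± 0.44 for Ctsd (95% interval -3.29 to -1.46). This was the smallest unadjusted p of all 12158 genes (2.66e-05), but its adjusted p was 0.300, so it did not pass. In the same test limma called 0 genes of 12158 (0%), with 569 at an unadjusted p under 0.05, and Ctsd was the 1 gene of the 10 among those 569. Over 28 alternatives its value stayed between -2.69 and -2.15 without a call, with adjusted p from 0.0550 to 0.938. Without the 3 libraries holding Smad3 it was -2.69 (adjusted p = 0.116). In the annotation used here, 32.4% of the 50-base words of Ctsd transcripts also occur in a gene named Gm49369, of which the table has no row by that name, so reads of the shared stretch could not be told apart.

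Ctsl, an endopeptidase of the lysosome that also processes the invariant chain, was low in most libraries with TGF-β1, but without a call. In wild type it stood at 384, 1001, 442 and 526 TPM with TGF-β1 and at 1604, 2989.6, 449, 4096 and 5241 TPM in control. Control library 3 lay among the TGF-β1 libraries and the other 4 controls above them. The log2 difference was -1.98 ± 0.64 (adjusted p = 0.272), the same size as that of Ctsd but with the widest interval of the 10 genes, from -3.30 to -0.65. With the knockout label it was at 627, 341 and 1237 TPM with TGF-β1 against 1759, 876, 1834, 769.7 and 6594 TPM in control, a log2 difference of -1.41 ± 0.69 (adjusted p = 0.845). The groups overlapped there too, and the control mean of 2367 ± 2413 TPM rests largely on library 5. Without the 3 libraries holding Smad3, which leaves 1 TGF-β1 library of that label, the value was -2.29. In the annotation used here, 6.46% of the 50-base words of Ctsl transcripts also occur in 66 other genes. Of those genes 54 were in the expression table, at up to 2167.7 TPM.

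Ctsc, the dipeptidyl peptidase that activates serine proteases of granules, was the member with the lowest level in wild-type control. It was at 127, 94.4, 85.2, 304 and 102 TPM in wild-type control and at 368, 486, 216 and 326 TPM with TGF-β1. All libraries but control 4 separated, and the log2 difference of 1.40 ± 0.50 did not pass (adjusted p = 0.332). In libraries labelled knockout Ctsc stood at 307, 216, 501, 186 and 381 TPM in control, above wild-type control apart from that library, with a log2 difference between genotypes of 1.24 ± 0.47 (adjusted p = 0.747). With TGF-β1 those libraries held 182, 1249 and 944 TPM, so library 1 lay below every control of the same label while the other 2 lay above every other library of the study. The log2 difference was 1.01 ± 0.54 (adjusted p = 0.854), or 2.25 (adjusted p = 0.259) without the 3 libraries holding Smad3.

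Ctsh, an aminopeptidase, differed in the opposite direction to Ctsc between the control groups. It was at 213, 167, 278, 318 and 249 TPM in wild-type control and at 59.7, 216, 98.6, 125 and 94.0 TPM in labelled-knockout control. Only library 2 of the latter reached the wild-type range, and the log2 difference of -1.13 ± 0.44 did not pass (adjusted p = 0.753). Under TGF-β1 it was at 236, 407, 254 and 517 TPM in wild type and at 121, 157 and 733 TPM in labelled knockout. The differences with TGF-β1 were 0.49 ± 0.47 in wild type (adjusted p = 0.792) and 1.14 ± 0.51 in labelled knockout (adjusted p = 0.814), and the second falls to 0.34 without labelled-knockout TGF-β1 library 3.

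The 4 other proteases showed small differences with TGF-β1 in wild type. Ctsb, an endopeptidase and carboxydipeptidase, ranged from 3647 to 5599 TPM in control and from 2547 to 5282 with TGF-β1, a log2 difference of -0.18 ± 0.22 (adjusted p = 0.846, 95% interval -0.64 to 0.27). Ctss, the main invariant chain protease of antigen-presenting cells, ranged from 2646 to 7683 TPM in control and from 3402 to 6606 with TGF-β1, a log2 difference of 0.24 ± 0.30 (adjusted p = 0.853, interval -0.39 to 0.87). For Ctsz, a carboxypeptidase, the ranges were 641 to 2324 and 1091 to 1930.3 TPM, with a log2 difference of -0.02 ± 0.32 (adjusted p = 1, interval -0.68 to 0.64). Lgmn, which cuts after asparagine and matures several cathepsins, ranged from 372 to 1214 TPM in control and from 355 to 1011 with TGF-β1, a log2 difference of -0.07 ± 0.41 (adjusted p = 0.986, interval -0.93 to 0.79). The intervals reach 0.87 for Ctss and -0.93 for Lgmn, so a missed threshold does not show that the levels were alike.

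In libraries labelled knockout, Ctsb had the smallest unadjusted p of the 10 genes with TGF-β1. It was at 3952, 1964 and 3005 TPM with TGF-β1 and at 3885, 6431, 4589, 4887 and 5749 TPM in control. Only TGF-β1 library 1 reached the control range, and the log2 difference of -0.82 ± 0.24 did not pass (adjusted p = 0.526 in limma). Without the 3 libraries holding Smad3 it was -1.39 with an adjusted p of 0.115. Lgmn was at 915, 419 and 734 TPM with TGF-β1 and ranged from 455 to 1813 TPM in control, a log2 difference of -0.60 ± 0.45 (adjusted p = 0.914), or -1.25 (adjusted p = 0.812) without those libraries. Ctsz gave -0.50 ± 0.34 (adjusted p = 0.894) and Ctss gave -0.06 ± 0.33 (adjusted p = 0.998), both with overlapping groups.

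The 2 cystatins went in opposite directions with TGF-β1 in wild-type cells, although only Cst3 passed the test. Cst3 was at 3159, 2697, 2161 and 4491 TPM with TGF-β1 and at 1551, 1327, 997, 1119 and 1936 TPM in control. Every TGF-β1 library was above every control, and the log2 difference was 1.16 ± 0.23 (95% interval 0.67 to 1.65, 2.24-fold, adjusted p = 0.0446 in limma). The call is near the threshold: it was lost without wild-type control library 2, 3 or 4 or TGF-β1 library 1, 2 or 4 (adjusted p 0.0782 to 0.129), while the value stayed between 0.97 and 1.32 in every fit without 1 library. Cstb was at 715, 1352, 1436 and 1104 TPM with TGF-β1 and at 2448, 3168, 2926, 2837 and 2119.7 TPM in control. Here every TGF-β1 library was below every control, but the log2 difference of -1.26 ± 0.29 had an adjusted p of 0.0766 and was not called.

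Under the knockout label the cystatins had differences of the same signs, smaller than in wild type and not called. Cst3 was at 2038, 3348 and 3270.1 TPM with TGF-β1 and at 1526, 2095, 1854, 1375 and 1849.9 TPM in control, a log2 difference of 0.71 ± 0.25 (adjusted p = 0.713 in limma). Cstb was at 2685, 846 and 1864 TPM with TGF-β1 and at 3168, 5435, 3402, 2666 and 2803 TPM in control, a log2 difference of -1.06 ± 0.31 (adjusted p = 0.526 in limma). For both genes TGF-β1 library 1 lay within the control range and libraries 2 and 3 outside it. Without the 3 libraries holding Smad3, which leaves library 2 alone in the TGF-β1 group, Cstb gave -1.99 with an adjusted p of 0.0406 and Cst3 gave 0.99 with an adjusted p of 0.571. The effects in the 2 labelled genotypes differed by -0.45 ± 0.35 for Cst3 and by 0.20 ± 0.42 for Cstb, both with an adjusted p of 0.997, and their intervals of -1.17 to 0.27 and -0.68 to 1.08 do not show that the effects were equal.

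**Figure D2:**
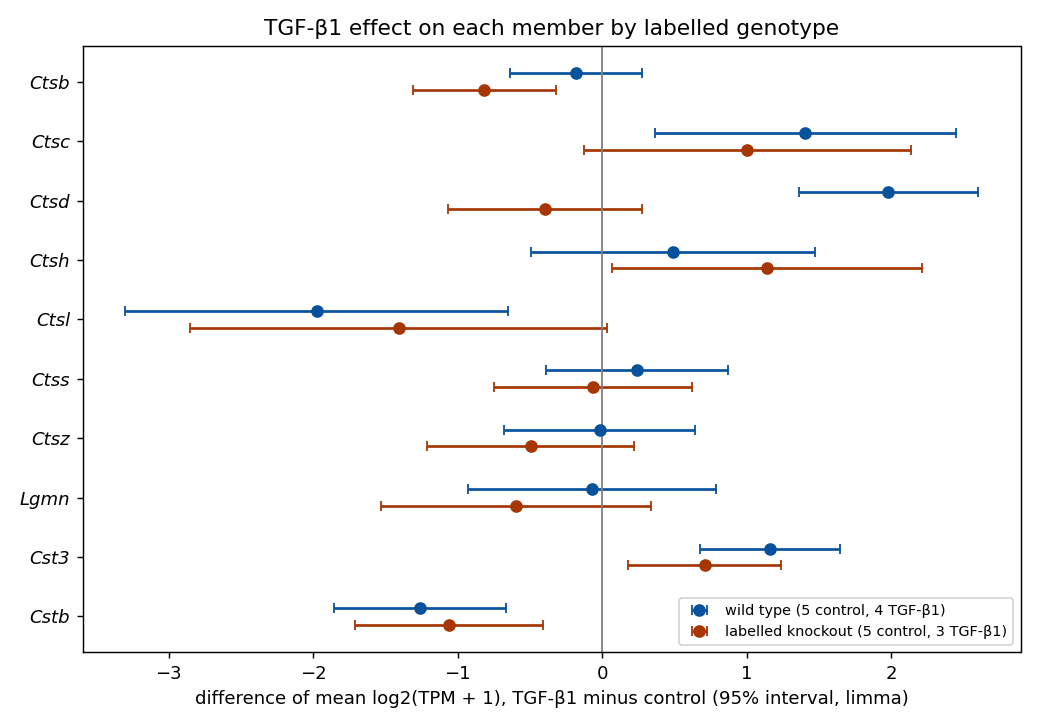
Difference of mean log2(TPM + 1) with TGF-β1 minus control for each gene, with 95% intervals from limma, in wild type (blue) and in libraries labelled knockout (brown). Cst3 and Cstb lie on the same side of 0 in both, while Ctsd is at 1.98 in wild type and -0.40 in labelled knockout.

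Counted over the 10 genes, limma called 2 higher (Ctsd and Cst3) and 0 lower with TGF-β1 in wild type, where 22 of 12158 genes (0.181%) were called, and 5 of the 10 had an unadjusted p under 0.05, as did 1212 of the 12158. The median log2 difference of the 10 was 0.11, against 0.09 over all genes tested, with 5 positive and 5 negative. Ctsd, Cst3 and Cstb, 3 of the 10, had wild-type groups without overlap, where 2.79% of all genes did. Under that comparison in labelled knockout, limma called 0 of the 10, where 0.00823% of all genes were called, and 4 had an unadjusted p under 0.05, as did 721 of the 12158. The median was -0.45 against 0.07 over all genes, and none of the 10 separated the groups, where 4.89% of all genes did. Between genotypes, 0 of the 10 were called in control, where limma called 0.148% of all genes and 1.06% did not overlap, and 2 had an unadjusted p under 0.05 (Ctsc and Ctsh), as did 708 of the 12158. Under TGF-β1, Ctsd alone was called and alone had groups without overlap, where 0.156% of all genes were called and 5.49% did not overlap.

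The 10 genes together took a sizeable share of all transcripts. They held 2.18% to 2.78% of the TPM in wild-type control, 2.91% to 5.37% in wild-type TGF-β1, 2.16% to 3.91% in labelled-knockout control and 1.88% to 2.48% in labelled-knockout TGF-β1. All 4 wild-type TGF-β1 libraries were above all wild-type controls, and Ctsd was the gene that took most of the added share. Its share of the TPM of the 8 proteases was 33.4% ± 13.0 (SD, n = 5) in wild-type control, 68.9% ± 4.57 (n = 4) in wild-type TGF-β1, 38.9% ± 6.00 (n = 5) in labelled-knockout control and 39.8% ± 8.92 (n = 3) in labelled-knockout TGF-β1. The cysteine proteases with Lgmn summed to 14049 ± 3053, 11985 ± 2919, 14998 ± 4593 and 10791 ± 2291 TPM in the same order, with overlapping libraries throughout. Ctsb, Ctss and Ctsl made up 60.5% to 89.8% of that sum in every library. These sums are given as values without a test.

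**Figure D3:**
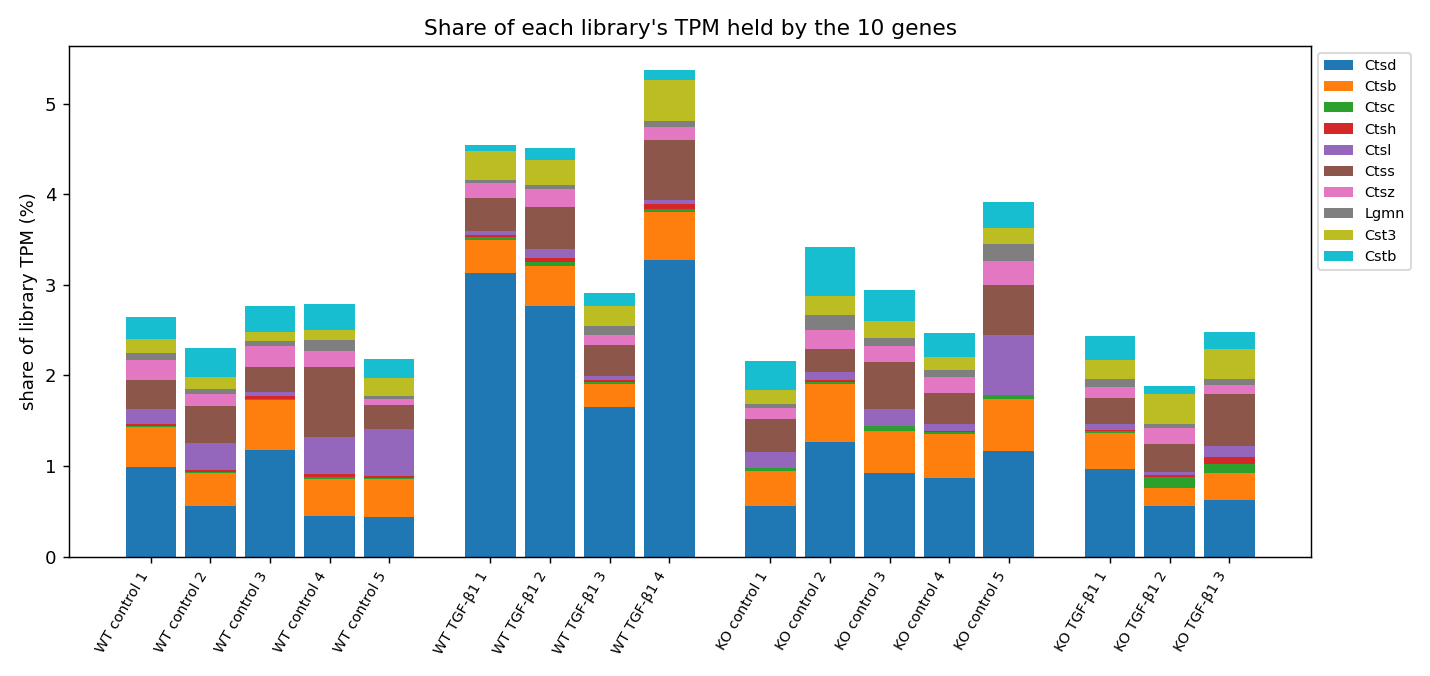
Share of each library's total TPM (%) held by the 10 genes, stacked by gene, 1 bar per library, where WT is wild type and KO is labelled knockout. The wild-type TGF-β1 bars reach 2.91% to 5.37%, and the blue Ctsd segment is the tallest in each of them.

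Ratios within a library do not depend on how TPM is scaled. Ctsd stood at 1.05 to 2.25 times Ctsb in wild-type control, 6.20 to 8.74 times in wild-type TGF-β1, 1.43 to 2.03 times in labelled-knockout control and 2.08 to 2.85 times in labelled-knockout TGF-β1. The wild-type TGF-β1 libraries therefore lay apart from all 13 others, and the labelled-knockout TGF-β1 libraries lay just above their own controls. Cst3 was below Cstb in all 10 control libraries, at 0.341 to 0.913 times in wild type and 0.385 to 0.660 times in labelled knockout. It was above Cstb in all 4 wild-type TGF-β1 libraries, at 4.42, 1.99, 1.50 and 4.07 times, and in labelled-knockout TGF-β1 libraries 2 and 3, at 3.96 and 1.75 times, but not in library 1, at 0.759 times. The summed TPM of the pair in the wild-type groups was 4086 ± 234 (SD) without and 4279 ± 897 with TGF-β1, and in the labelled-knockout groups 5235 ± 1353 without and 4683 ± 471 with it, with overlapping ranges of libraries. Ctsl was at 0.161 to 1.98 times Ctss in wild-type control and 0.0796 to 0.213 times in wild-type TGF-β1, with overlap through control library 3.

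**Figure D4:**
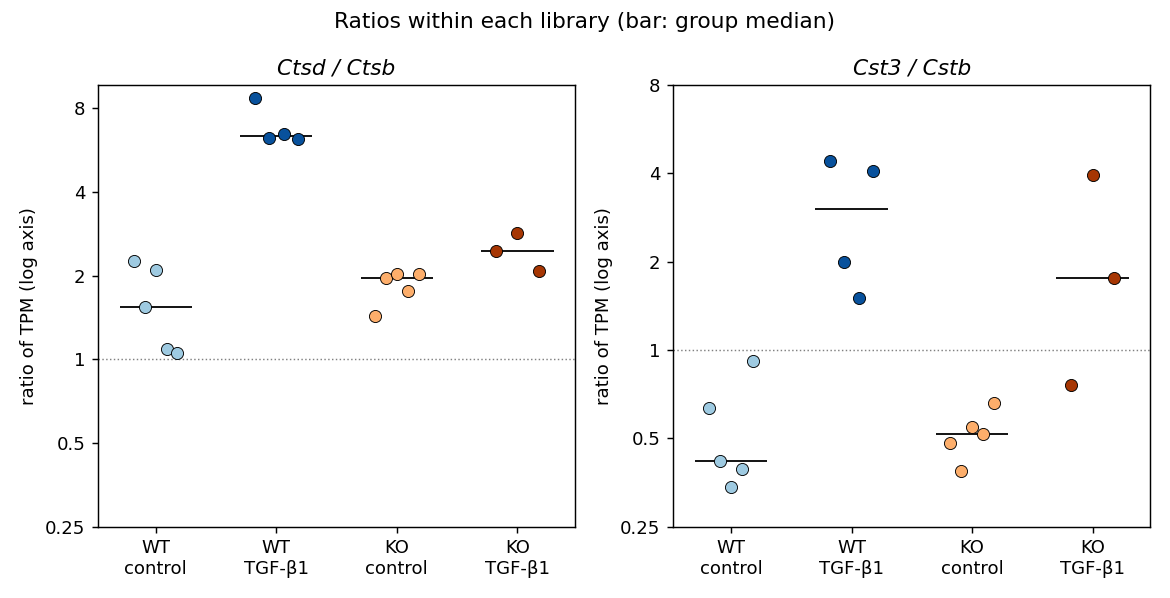
Ratio of TPM within each library (log axis) for Ctsd to Ctsb and for Cst3 to Cstb, 1 point per library with the group median as a bar, where WT is wild type and KO is labelled knockout. The ratio of Ctsd to Ctsb is 6.20 to 8.74 in wild-type TGF-β1 and at most 2.85 elsewhere, and the ratio of Cst3 to Cstb is below 1 in all 10 control libraries.

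Within groups some of the genes rose and fell together from library to library. Around the group means of log2(TPM + 1), over 17 libraries, Pearson's r was 0.77 for Ctsb and Ctsd, 0.66 for Ctsd and Ctsz, 0.64 for Ctsc and Ctss, 0.57 for Lgmn and Cstb and 0.56 for Ctsl and Ctss. The lowest was -0.48 for Ctsc and Cstb. Over all libraries without taking out the group means, r for Ctsb and Ctsd was 0.27, since the wild-type TGF-β1 libraries hold far more Ctsd at the same Ctsb. These values share libraries and their scaling to a common total, and they are given as a description.

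**Figure D5:**
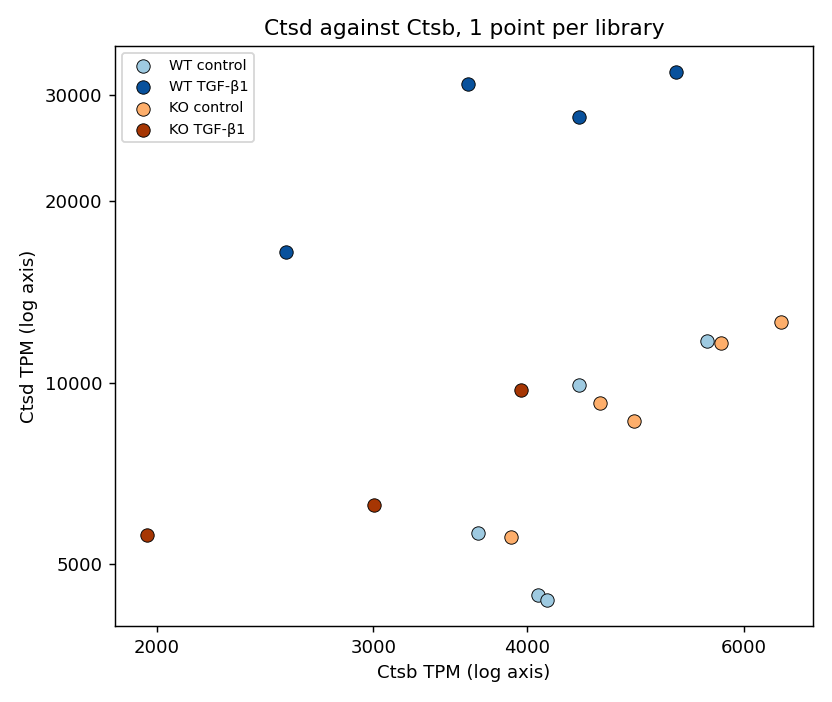
Ctsd against Ctsb in TPM (both axes log), 1 point per library, coloured by group, where WT is wild type and KO is labelled knockout. The 4 wild-type TGF-β1 points lie at 16485 to 32752 TPM of Ctsd, above the other 13 at similar Ctsb.

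The other genes of the pathway were taken from 3 lists, and limma called none of their tested genes in any comparison. Of 18 other cathepsins and related endolysosomal proteases, 6 were tested and 9 were listed at 0 in every library. Ctso, a papain-type cathepsin, was at 32.6 ± 29.8 TPM in wild-type control and 50.0 ± 24.3 with TGF-β1 (log2 difference 2.03 ± 1.09, adjusted p = 0.565). It fell to 0.03 TPM in wild-type control, and such low values weigh more on the log2 difference than on the means. Ctse, an aspartic protease related to Ctsd, was listed at 0 in all wild-type controls and reached 30.2 TPM in 1 of the TGF-β1 libraries (1.87 ± 0.68, adjusted p = 0.344). Ctse passed the filter only through libraries with TGF-β1, which fixes the sign of its difference, so no count or median over the tested genes of this list is given. In labelled knockout the largest were Ctsf, a papain-type cathepsin, at -0.67 ± 1.48 (adjusted p = 0.987), and Tpp1, a tripeptidyl peptidase, at -0.35 ± 0.41 (adjusted p = 0.968). The sign for Ctsf depends on the scale, as its mean there was 7.83 ± 8.32 TPM in control and 10.0 ± 17.4 with TGF-β1. Its TGF-β1 libraries ranged from 0 to 30.1 TPM, and 9 libraries of the study listed it at 0.

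Of 21 other cystatins, stefins and serpins listed, 18 were in the table, 13 of these were at 0 in every library and 4 were tested. Serpinb6a, a cytosolic serpin, was at 325 to 589 TPM in wild-type control and 68.3 to 272 with TGF-β1 without overlap, a log2 difference of -1.29 ± 0.39 that did not pass (adjusted p = 0.226). Serpinb9, the granzyme B inhibitor, gave -1.70 ± 1.56 in wild type (adjusted p = 0.780) and -2.03 ± 1.70 in labelled knockout (adjusted p = 0.931). Serpinb1a, an inhibitor of neutrophil serine proteases, gave -2.68 ± 1.41 in labelled knockout (adjusted p = 0.854). The median of the list was -0.85 in wild type and -1.48 in labelled knockout, each with 3 of 4 negative, against medians of 0.09 and 0.07 over all genes, and 1 gene in each had an unadjusted p under 0.05. Of the 4, Serpinb6a alone reached a TPM of 1 in every library. Cst7 and Serpinb9 did so in 10 libraries each and Serpinb1a in 7, so these medians rest largely on values near the floor. Cst3 and Cstb were thus the main cystatins measured here, as Cst7, the other one tested and named after its values were seen, reached at most 65.1 TPM.

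All 19 genes of sorting, activation and cofactors were tested. In wild type 11 had positive and 8 negative differences (median 0.02) against 53.8% positive and a median of 0.09 over all genes, and 5 had an unadjusted p under 0.05 (all genes: 1212 of 12158). In labelled knockout the numbers were 11, 8 and 2 with a median of 0.24, against 53.1% positive, 721 of 12158 and a median of 0.07 over all genes. Scarb2, the lysosomal membrane protein that carries glucocerebrosidase, was at 49.95 ± 37.5 TPM in wild-type control and 183 ± 129.9 with TGF-β1 (log2 difference 2.57 ± 0.92, adjusted p = 0.332). It fell to 0.12 TPM in wild-type control, which weighs more on the log2 difference than on the means. Sort1, a sorting receptor, was at 1.78 ± 2.49 and 10.1 ± 7.17 TPM with no overlap (2.32 ± 0.86, adjusted p = 0.364). In labelled knockout the largest differences were those of the transcription factors Mitf, at 2.16 ± 1.39 (adjusted p = 0.883), and Tfec, at 1.33 ± 1.28 (adjusted p = 0.953). The other 3 genes of the list at an unadjusted p under 0.05 in wild type were named after their values were seen. Lamp2, a lysosomal membrane protein, gave a log2 difference of 1.03 ± 0.31 (adjusted p = 0.221), Ppt1, a thioesterase, gave 1.12 ± 0.46 (adjusted p = 0.430) and Psap, the precursor of the saposins, gave -0.86 ± 0.31 (adjusted p = 0.332).

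For each gene, the patterns most like it over the 17 libraries were found by Pearson's r of log2(TPM + 1) among 7307 genes with a symbol and a mean TPM of 10 or more. For Ctsd they were Smc5 (r = 0.80) and Fuca1 (0.78), for Cst3 Mtus1 (0.86) and Il21r (0.84), and for Cstb Por (0.86) and Serpinb6a (0.86). For Ctsl they were Rab7 (0.86) and Stra6l (0.80), for Ctsb Lat2 (0.84) and Scpep1 (0.83), and for Ctsc Atg4d (0.82) and Fcgr3 (0.77). Lgmn was most like Synj1 (0.81) and Ftl1 (0.77), Ctsz like Nub1 (0.76) and Pgm1 (0.72), Ctsh like Itm2c (0.74), and Ctss like Gm8116 (0.74) and Pdp1 (0.74). No member appeared among the closest genes of another member. These are the highest of many values over few libraries and measure likeness only.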

How the data were processed

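TPM was measured in 17 mouse macrophage libraries and deposited by the authors as 1 table of RSEM estimates. Per the submitters' processing notes, FastQC, Trim Galore and RSEM were used with mouse build mm9, without stated versions. Depth cannot be read from TPM, so counting intervals are not given. Groups came from the sample titles. Gene symbols were taken from GENCODE vM21 for 32897 of 37620 gene IDs, and RSEM divides reads among near-identical transcripts.

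Tests used log2(TPM + 1), a scale that compresses changes of low genes. The 12158 genes with TPM of 1 or more in 3 or more libraries were fitted once over the 4 groups with limma 3.58.1 in R 4.3.3 (lmFit, eBayes with a trend), with 5 two-sided contrasts and Benjamini-Hochberg adjustment over all genes tested. The code was tested on simulated data. The text names the 10 members, Smad3, per pathway list and TGF-β1 contrast the 2 tested genes with the largest absolute difference, and the 2 genes most like each member, of which 1 is not reported here. Cst7, Lamp2, Ppt1 and Psap were named outside this rule, after their values were seen. The members, lists and alternatives were chosen with earlier results of these data known. Alternatives were other pseudocounts, filters and scalings, a replicate block, a covariate, library weights, the compared groups alone, and libraries left out.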

Additional observations from a re-analysis of the deposited data

Results flagged for a closer look

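In groups of 4 or 5 libraries, a library was flagged by the gap in TPM to its neighbour, as a share of the group's range. The flag was set where this share passed Dixon's 95% critical value, as it did in 3 of 30 gene and group combinations. Chance alone passes that value in about 1 in 20 groups of normally distributed values. The rule was applied to TPM, not to log2(TPM + 1), so that rate need not hold here. Whether the 3 flags hold on the log2 scale was not tested. Each flagged library was the highest of its group. Ctsc was at 304.45 TPM in wild-type control library 4, against 85.2 to 127 in the other 4. Ctsl was at 6594.18 TPM in labelled-knockout control library 5, against 769.7 to 1834 in the others. Cstb was at 5435 TPM in labelled-knockout control library 2, against 2666 to 3402 in the others.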

How the results depend on the processing

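Over all alternatives, 1015 of 1090 values of single genes kept their sign and side of the threshold, 46 changed sign, none of them a called difference, 28 lost the call and 1 gained it. The cause was not tested. Ctsd in wild type stayed positive in all 20 alternatives (1.83 to 2.24) and was called in 17, and it was also lost with no filter on low values (adjusted p = 0.0758). Cst3 in wild type stayed positive in 20 and was called in 6 (adjusted p 0.0199 to 0.210). Ctsd under TGF-β1 was lower in labelled knockout in all 19 and called in 8 (adjusted p 0.00499 to 0.291). Quantile normalization moved the median of all genes from 0.09 to -0.06 for TGF-β1 in wild type and from 0.11 to -0.0037 between the controls, and upper-quartile scaling moved it from 0.07 to -0.03 in labelled knockout, where quantile normalization gave -0.06.

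Members called with TGF-β1 in wild type numbered 2, against 1 with pseudocount 10, upper-quartile scaling, quantile normalization, array weights or the replicate block, 0 with no filter, compared groups alone or without the 6 libraries listing over 10% of moderate genes at 0, and 1 to 2 without 1 library. Between genotypes under TGF-β1 the 1 called became 0 with no filter, upper-quartile scaling, the replicate block, compared groups alone, without the 6 libraries or without those holding Smad3, and was 0 to 1 without 1 library. In labelled knockout the 0 stayed except without the libraries holding Smad3, where Cstb gained a call. That fit leaves 1 TGF-β1 library of that label, without a replicate.

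Of all genes, the 22 called in wild type became 6 with no filter, 11 with the replicate block, 5 with compared groups alone, 5 without the 6 libraries, and 14 to 34 without 1 library (14 on leaving out TGF-β1 library 4 and 34 on leaving out its library 3). The 1 called in labelled knockout became 0 with pseudocount 0.1, a filter of TPM 5, the replicate block, a covariate for detected genes, compared groups alone or without the 6 libraries. It became 4 with pseudocount 10, 5 with no filter, 6 with quantile normalization, 8 with array weights, 44 without the libraries holding Smad3, and 0 to 10 without 1 library. The 0 of the difference between effects became 1 with no filter and 0 to 1 without 1 library. The 18 between controls became 8 without the 6 libraries. The 19 between genotypes under TGF-β1 became 10 with the replicate block, 3 with compared groups alone, 7 without the 6 libraries, 56 without those holding Smad3, and 12 to 20 without 1 library.

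The sign changed for differences that were never called. With TGF-β1 in wild type, Ctsb became 0.064 under quantile normalization and 0.12 without the 6 libraries, Ctsz 0.058 with the covariate and 0.091 with array weights, and Lgmn 0.076 with the covariate. Without 1 library these ran from -0.34 to 0.013 for Ctsb, -0.32 to 0.14 for Ctsz and -0.33 to 0.17 for Lgmn. In labelled knockout Ctss became 0.17 under quantile normalization and 0.094 with the replicate block, and ran from -0.37 to 0.12 without 1 library. For the difference between effects, Lgmn became 0.30 without the 6 libraries, while Ctsc became 0.85, Ctsl -0.32 and Cstb -0.73 without the libraries holding Smad3. Without 1 library that difference ran from -0.16 to 0.67 for Cstb, -0.93 to 0.46 for Ctsc and -0.15 to 1.15 for Ctsh. Between controls Ctss became -0.044 without the libraries holding Smad3 and ran from -0.065 to 0.32 without 1 library, and Ctsz ran from -0.0059 to 0.46. Between genotypes under TGF-β1, Cst3 became 0.022 under quantile normalization, and without the libraries holding Smad3 the values were -0.68 for Ctsl, 0.24 for Ctsz, -0.50 for Lgmn, 0.15 for Cst3 and -0.40 for Cstb. Without 1 library they ran from -0.26 to 0.13 for Cst3, -1.28 to 0.017 for Ctsh, -0.24 to 0.69 for Ctsl and -0.10 to 0.46 for Lgmn.

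No pairing of libraries by the replicate numbers in the titles was seen. Over 22 same-numbered pairs the correlation of deviations from group means was -0.0761 to 0.0213, with 0 above 0.1. In 4 of these pairs the library correlated best with its own number. The labels name no animal or culture, so these values do not show that libraries of the same number are unrelated. With the replicate block, Cst3 in wild type was 1.24 (adjusted p = 0.0788) and Ctsd between genotypes under TGF-β1 was -1.95 (adjusted p = 0.0846). Depth is unknown, so its effect on low values could not be assessed.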
